A study of Mus musculus with 8 samples.

Results

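The transcripts of 10 genes that mark tissue macrophages were followed in the mouse esophagus: Adgre1, Csf1r, Cd68, Mrc1, C1qa, C1qb, C1qc, Cd163, Lyve1 and Folr2. They were chosen by gene symbol as macrophage identity genes, 10 of the 32849 symbols in the deposited count table, and all 10 had enough counts to be tested. Bulk RNA sequencing had been done on frozen esophagus tissue of healthy mice, 4 MGL KO and 4 WT libraries, to ask what changes at baseline when the enzyme is missing. MGL is monoacylglycerol lipase, the product of Mgll, which breaks down the endocannabinoid 2-arachidonoylglycerol. It is unrelated to the macrophage galactose-type lectins, which carry a similar abbreviation. The KO mice lack the gene in the whole body and were bred with WT littermates. Neither group received a further allele, agent or diet that the sources name, and the labels state neither age nor sex. Each label names 1 library by genotype and a number from 1 to 4, and nothing says that tissue was pooled. The labels do not say that the mice came from separate litters or days, so the p-values measure only the spread between these samples.

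Tissue macrophages are long-lived phagocytes that settle in nearly every organ, where they clear dead cells and debris and meet microbes that cross the epithelium. Their survival depends on the receptor encoded by Csf1r and on transcription factors such as PU.1 and members of the MAF family. In gut wall and other connective tissues, a subset that lies along blood vessels and nerves carries Lyve1, Folr2, Cd163 and Mrc1. Macrophages are also the main source of C1q, the molecule that starts the classical complement pathway. In bulk tissue, fewer macrophages and less RNA per macrophage cannot be told apart.

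All 10 genes had a lower mean in MGL KO than in WT, and none passed the test across all genes. The mean was 31.7% of WT for Folr2, 35.1% for Adgre1, 50.5% for C1qb and 92.4% for Lyve1, the lowest and the highest of the 10 among them. The median log2 fold change of the 10 was -0.89, beside 0.02 for all 14864 genes tested. A lower mean in MGL KO was seen for 47.0% of all genes tested. By the quasi-likelihood test of edgeR, adjusted over all genes by the Benjamini-Hochberg method, 0 of the 10 were called at an adjusted p of 0.05. Of all genes 7 were called, 0.0471%, among them 4 with a lower level in MGL KO, 0.0269%. Without adjustment, 8 of the 10 had a p under 0.05, where 4.29% of all genes had one with a lower level in MGL KO and 8.65% had one in either direction. DESeq2, edgeR's exact test and limma-voom likewise called 0 of the 10. Much of the size of the differences rested on 1 library, WT replicate 1, and each member's difference is given with and without it.

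The regions just upstream of these genes show what a macrophage gene's start looks like, and they are shown for the complement genes whose levels were most alike over the libraries and for 3 genes of other roles. Promoter windows were examined for 6 of the 10 genes: C1qb, C1qc, Cd68, Mrc1, Cd163 and Folr2, the last with 2 start sites. No window was examined for Adgre1, Csf1r, C1qa and Lyve1, so the motif counts leave these genes out. The sequences are the 250 bases before the start, 5′ to 3′ in the direction of the gene, from RefSeq on GRCm38.p6. Capitals mark GAGGAA, the core bound by PU.1 and other ETS factors, on either strand (TTCCTC where it lies on the other one).
C1qb (chr4:136886201-136886450, - strand): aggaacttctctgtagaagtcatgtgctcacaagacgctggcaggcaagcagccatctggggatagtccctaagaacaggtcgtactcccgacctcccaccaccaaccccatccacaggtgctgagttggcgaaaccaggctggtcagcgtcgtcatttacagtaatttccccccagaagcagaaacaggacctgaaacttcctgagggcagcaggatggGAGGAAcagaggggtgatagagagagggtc
C1qc (chr4:136892915-136893164, - strand): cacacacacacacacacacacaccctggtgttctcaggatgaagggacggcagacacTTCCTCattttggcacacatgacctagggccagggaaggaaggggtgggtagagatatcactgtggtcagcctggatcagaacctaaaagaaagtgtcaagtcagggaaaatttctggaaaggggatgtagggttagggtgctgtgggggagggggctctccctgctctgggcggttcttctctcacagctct
Cd68 (chr11:69666171-69666420, - strand): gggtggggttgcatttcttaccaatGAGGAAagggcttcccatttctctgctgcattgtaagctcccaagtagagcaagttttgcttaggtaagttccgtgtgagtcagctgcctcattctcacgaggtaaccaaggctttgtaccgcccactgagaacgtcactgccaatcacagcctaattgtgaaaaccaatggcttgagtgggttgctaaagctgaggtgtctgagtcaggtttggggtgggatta
Mrc1 (chr2:14229164-14229413, + strand): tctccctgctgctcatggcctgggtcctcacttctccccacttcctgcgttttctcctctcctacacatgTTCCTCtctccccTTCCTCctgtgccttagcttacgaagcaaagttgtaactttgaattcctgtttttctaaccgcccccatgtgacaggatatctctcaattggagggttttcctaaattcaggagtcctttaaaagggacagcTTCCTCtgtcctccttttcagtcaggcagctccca
Cd163 (chr6:124304401-124304650, + strand): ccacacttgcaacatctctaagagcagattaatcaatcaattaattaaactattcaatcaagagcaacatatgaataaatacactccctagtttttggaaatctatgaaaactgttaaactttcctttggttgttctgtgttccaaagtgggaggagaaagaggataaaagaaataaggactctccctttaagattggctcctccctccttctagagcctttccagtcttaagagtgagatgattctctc
GAGGAA stood in 4 of the 7 windows of these genes, with 3 copies in Mrc1, 1 each in C1qb, C1qc and Cd68, and no match in Cd163 or in either window of Folr2. Of 32851 promoters, 23.3% held it in a window of the same length. TGCTGA, part of the site of MAF factors, stood on either strand in 3 of the 7 windows, those of C1qb and both of Folr2, and in 16.1% of all promoters. The TATA box TATAAA was found on either strand in 0 of the 7 windows and in 12.4% of all promoters. These 3 motifs were chosen with the expression values known, and a match is a description of the letters, not of binding.

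Libraries held from 13479069 to 17090152 counts. Levels are given as normalized CPM, a count relative to its library size after TMM scaling. A gene without a count could be at up to 3 counts, or 0.167 to 0.271 CPM, a limit for counting error only. Mgll, the targeted gene, was at 13.7 ± 1.54 CPM in MGL KO and 81.2 ± 9.97 in WT (SD, n = 4 each), a log2 fold change of -2.57 (SE 0.13, adjusted p = 0.000133 in edgeR's quasi-likelihood test), and the library labels thus matched its level. WT replicate 1 stood apart from the other WT libraries by genes of other immune cells. The summed level of 8 B and plasma cell genes was 5614 CPM there, 10.6 to 59.3 in the other WT libraries and 26.4 to 455.6 in MGL KO. The summed level of 4 T and NK cell genes was 12.8 CPM in WT replicate 1 and 0.197 to 4.72 in the other 7 libraries. MGL KO replicate 4 had 5145 CPM of 5 airway epithelium genes, beside 5.05 to 41.9 in the other 7 libraries. The part of these libraries in the results was not tested otherwise than by leaving them out. The summed level of the 10 macrophage genes was 260.2, 255.1, 317.4 and 243.2 CPM in MGL KO replicates 1 to 4, and 704.2, 316.3, 272.2 and 480.5 CPM in WT replicates 1 to 4. The sums of WT replicates 2 and 3 thus lay within the range of the MGL KO libraries, and those of WT replicates 1 and 4 above it.

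**Figure D1:**
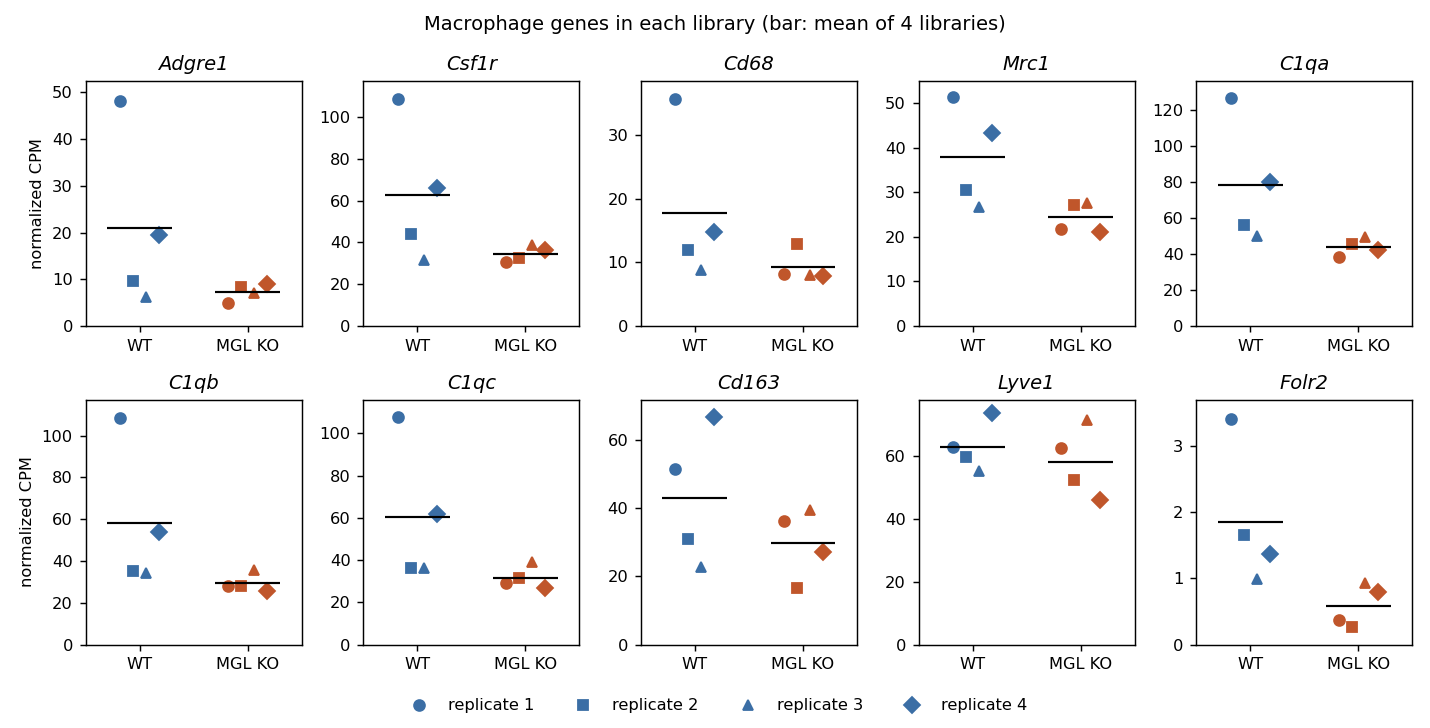
Normalized CPM of each of the 10 macrophage genes (vertical axis from 0) in the 4 WT (blue) and 4 MGL KO (orange) libraries, with 1 symbol per replicate number and a bar at the group mean. WT replicate 1 is the highest library for 8 of the 10 genes, while for Cd163 and Lyve1 it is WT replicate 4.

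Adgre1 encodes F4/80, the adhesion receptor by which mouse macrophages are usually recognised, and it lies at chr17:57665573-57790527 (GRCm39, plus strand). Its level was 5.02, 8.39, 6.97 and 8.99 CPM in MGL KO replicates 1 to 4 and 48.3, 9.53, 6.31 and 19.5 CPM in WT replicates 1 to 4. WT replicate 1 held 2.48 times the next WT library, WT replicate 3 lay inside the MGL KO range, and the groups overlapped. The means were 7.34 ± 1.77 and 20.9 ± 19.1 CPM (SD, n = 4), with a log2 fold change of -1.51 (SE 0.58, 95% interval -2.82 to -0.20, adjusted p = 0.541). Without WT replicate 1 the log2 fold change was -0.68 (SE 0.39, adjusted p = 0.780). Adgre1 is also made by eosinophils. The 5 eosinophil genes examined summed to 0.114 to 2.06 CPM, none passed the filter on low counts, and Epx, their granule peroxidase, was at 0 counts in all 8 libraries. The highest of these sums was that of WT replicate 1.

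Csf1r encodes the receptor for the growth factors CSF1 and IL-34, and it lies on chromosome 18. It was at 30.7, 32.5, 38.5 and 36.6 CPM in MGL KO and at 108.8, 44.2, 31.5 and 66.0 CPM in WT. The MGL KO libraries lay close together and WT replicate 3 among them, so that the groups overlapped. The means were 34.6 ± 3.62 and 62.6 ± 33.9 CPM (SD, n = 4), the log2 fold change was -0.86 (SE 0.33, 95% interval -1.61 to -0.10) and the adjusted p was 0.550 in the same test. Without WT replicate 1 it was -0.45 (SE 0.23, adjusted p = 0.756). Of the merged exon bases of Csf1r, 19.8% are shared with Hmgxb3, and since the use of strand in the counting is not given in the sources used here, its counts are uncertain to that extent. The ligands, picked for their role with values in view, were at 30.9 ± 3.14 CPM in MGL KO and 35.8 ± 5.21 in WT for Csf1 (log2 fold change -0.21, adjusted p = 0.665) and at 4.25 ± 0.861 and 5.05 ± 0.986 CPM for Il34 (-0.25, adjusted p = 0.772, from -0.38 without MGL KO replicate 1 to -0.15 without WT replicate 1). For both ligands the groups overlapped.

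Cd68 encodes a glycoprotein of late endosomes and lysosomes, at chr11:69555037-69557067 (GRCm39, minus strand). It was at 8.21, 12.9, 8.02 and 7.81 CPM in MGL KO and at 35.6, 11.99, 8.81 and 14.8 CPM in WT. WT replicate 1 held 2.40 times the next WT library, and MGL KO replicate 2 exceeded WT replicates 2 and 3. The means were 9.23 ± 2.45 and 17.8 ± 12.1 CPM (SD, n = 4), with a log2 fold change of -0.95 (SE 0.42, 95% interval -1.90 to -0.01, adjusted p = 0.578). Without WT replicate 1 it was -0.37 (SE 0.26, adjusted p = 0.807).

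Mrc1, Cd163, Lyve1 and Folr2 are the genes of the scavenging, vessel-associated subset. Mrc1 encodes the mannose receptor CD206, which takes up glycoproteins with exposed mannose, at chr2:14234151-14336926 (GRCm39, plus strand). It was at 21.9, 27.3, 27.6 and 21.0 CPM in MGL KO and at 51.3, 30.5, 26.7 and 43.4 CPM in WT. Only WT replicate 3 lay inside the MGL KO range. The means were 24.4 ± 3.46 and 38.0 ± 11.4 CPM (SD, n = 4), with a log2 fold change of -0.64 (SE 0.21, 95% interval -1.12 to -0.15, adjusted p = 0.503), and without WT replicate 1 it was -0.46 (SE 0.19, adjusted p = 0.740).

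Cd163 encodes the receptor that clears haemoglobin bound to haptoglobin. It lies at chr6:124281606-124307560 (GRCm39, plus strand), on the chromosome of Mgll and 35.5 Mb from it. Its level was 36.3, 16.7, 39.5 and 27.3 CPM in MGL KO and 51.5, 31.0, 22.8 and 66.8 CPM in WT. The libraries of the 2 groups were interleaved, and WT replicate 4, not WT replicate 1, was the highest. The means were 29.9 ± 10.2 and 43.0 ± 19.9 CPM (SD, n = 4), with a log2 fold change of -0.52 (SE 0.36, 95% interval -1.35 to 0.30, adjusted p = 0.696). Leaving out WT replicate 1 gave -0.42 (SE 0.41, adjusted p = 0.856), while leaving out WT replicate 4 gave -0.23 (SE 0.35) and leaving out MGL KO replicate 2 gave -0.32 (SE 0.35).

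Lyve1 encodes a receptor for hyaluronan that is also carried by lymphatic endothelium, at chr7:110448585-110462460 (GRCm39, minus strand). It was the member with the smallest difference, at 62.5, 52.2, 71.3 and 45.9 CPM in MGL KO and at 62.7, 59.6, 55.2 and 73.5 CPM in WT. The groups overlapped over most of their range, and WT replicate 1 was an ordinary library for this gene. The means were 58.0 ± 11.2 and 62.7 ± 7.78 CPM (SD, n = 4), with a log2 fold change of -0.11 (SE 0.15, 95% interval -0.46 to 0.23, adjusted p = 0.83). It was -0.11 when WT replicate 1 was left out (SE 0.17, adjusted p = 0.909). Other libraries moved it more, to -0.02 without MGL KO replicate 4, to -0.03 without WT replicate 4, to -0.06 without MGL KO replicate 2 and to -0.23 without MGL KO replicate 3. Lymphatic endothelium was present in the tissue by its own markers: 6 of them summed to 52.2 to 145.5 CPM in MGL KO and to 93.3 to 144.2 CPM in WT. Prox1, the transcription factor that defines these vessels, was at 7.06 ± 2.21 and 7.75 ± 0.785 CPM. All 6 had a lower mean in MGL KO, with a median log2 fold change of -0.40, and none was called or had an unadjusted p under 0.05. With MGL KO replicate 2 left out, the log2 fold change was 0.04 for Prox1 and 0.03 for Pdpn. The others then ran from -0.28 for Ccl21a to -0.02 for Mmrn1. How much of the Lyve1 transcript came from each cell type was not tested.

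Folr2 encodes folate receptor beta, at chr7:101489195-101506401 (GRCm39, minus strand), and it was the rarest of the 10. It had 6, 3, 15 and 14 counts in MGL KO and 61, 29, 15 and 21 counts in WT, or 0.367, 0.271, 0.925 and 0.787 CPM against 3.403, 1.66, 0.986 and 1.37 CPM. Every MGL KO library was below every WT library on the CPM scale, although MGL KO replicate 3 and WT replicate 3 had 15 counts each. The log2 fold change was -1.62 (SE 0.51, 95% interval -2.78 to -0.46, adjusted p = 0.499), and without WT replicate 1 it was -1.15 (SE 0.47, adjusted p = 0.736). Of its merged exon bases 61.2% are shared with Gm10602, so counts of Folr2 are uncertain for the same reason as those of Csf1r.

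C1qa, C1qb and C1qc encode the A, B and C chains, which join in equal numbers to make C1q. The genes lie side by side within 20.2 kb on chromosome 4 (GRCm39, minus strand), C1qb at chr4:136606009-136613511, C1qc at chr4:136616466-136620376 and C1qa at chr4:136623223-136626161. C1qa was at 38.4, 45.4, 49.7 and 42.4 CPM in MGL KO and at 126.5, 56.2, 49.8 and 79.9 CPM in WT. No MGL KO library reached a WT library, but MGL KO replicate 3 and WT replicate 3 differed by less than counting error. The means were 44.0 ± 4.77 and 78.1 ± 34.8 CPM (SD, n = 4), with a log2 fold change of -0.83 (SE 0.27, 95% interval -1.44 to -0.21, adjusted p = 0.503). With WT replicate 1 left out, the log2 fold change was -0.49 (SE 0.18, adjusted p = 0.726).

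C1qb was at 27.9, 28.1, 35.6 and 25.6 CPM in MGL KO and at 108.7, 35.4, 34.1 and 53.7 CPM in WT. C1qc was at 29.0, 31.4, 39.3 and 26.9 CPM in MGL KO and at 107.5, 36.1, 36.0 and 61.6 CPM in WT. For both genes MGL KO replicate 3 lay above WT replicates 2 and 3, and the other MGL KO libraries below every WT library. The log2 fold change was -0.99 (SE 0.35, adjusted p = 0.523) for C1qb and -0.93 (SE 0.34, adjusted p = 0.523) for C1qc, and without WT replicate 1 it was -0.49 for both (adjusted p = 0.736 and 0.749). C1qb shares 0.977% and C1qc 8.64% of its merged exon bases with Gm69251.

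The ratio among the chains varied far less than their level. The sum of the C1q transcripts ran from 94.9 to 124.6 CPM in MGL KO and from 119.9 to 342.7 CPM in WT, whereas the ratio of C1qc to C1qb stayed between 0.990 and 1.15 over all 8 libraries. The ratio of C1qb to C1qa was 0.603 to 0.726 in MGL KO and 0.630 to 0.859 in WT, highest in WT replicate 1. C1r and C1s, the proteases that C1q activates, are made by other cells as well, and their genes were picked here for their role with values in view. C1ra was at 24.7 ± 5.16 CPM in MGL KO and 40.4 ± 15.0 in WT (SD, n = 4), a log2 fold change of -0.71 (adjusted p = 0.523, and -0.44 without WT replicate 1), and C1s1 at 36.1 ± 9.46 and 61.4 ± 19.3 CPM, a log2 fold change of -0.76 (adjusted p = 0.503). Neither was called, and for both the groups overlapped.

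By the two-sided exact permutation test of the group means, with 4 libraries against 4, the smallest p possible was 0.0286. C1qa and Folr2 reached it, 2 of the 10 genes with every MGL KO library below every WT library, a pattern that 3.30% of all genes tested had. The opposite order was found for 0 of the 10 and for 2.72% of all genes. The permutation p was 0.0857 for Mrc1, C1qb and C1qc. It was 0.114 for Csf1r, 0.143 for Cd68 and 0.171 for Adgre1. It was 0.314 for Cd163 and 0.486 for Lyve1.

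**Figure D2:**
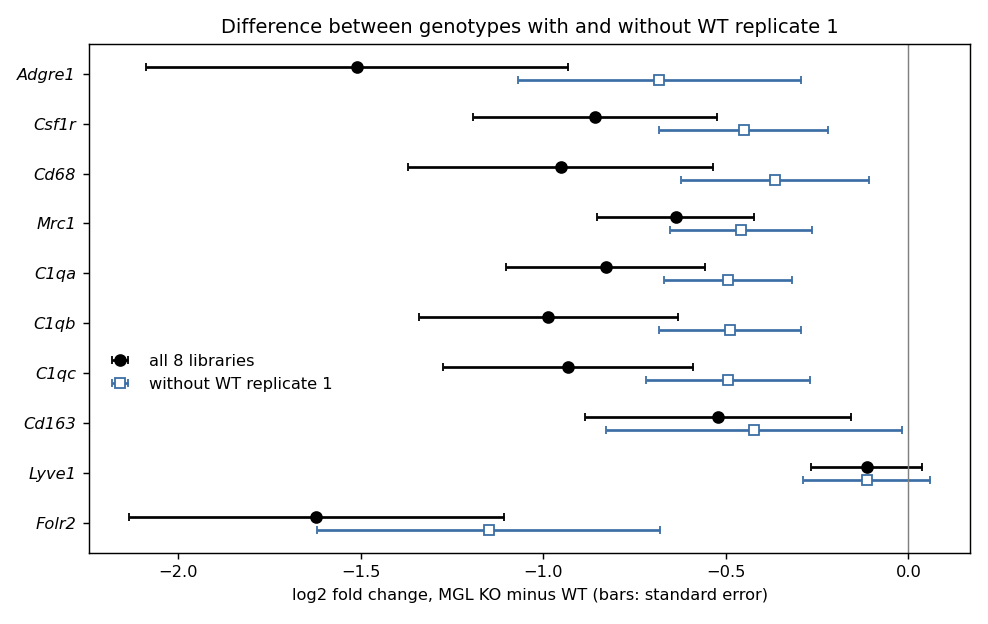
Log2 fold change of MGL KO against WT for each macrophage gene (points) with its standard error (bars), from all 8 libraries (filled black) and without WT replicate 1 (open blue). All 20 points lie below 0, and the median of the 10 genes goes from -0.89 to -0.47 when WT replicate 1 is left out.

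The 10 genes varied most within WT. The highest WT library held 7.64 times the lowest for Adgre1 and 1.33 times for Lyve1, and the same ratio in MGL KO ran from 1.26 for Csf1r to 3.42 for Folr2. The SD was larger in WT than in MGL KO for every gene but Lyve1. WT replicate 1 was the highest of the 8 libraries for 8 of the 10 genes, where this held for 14.9% of all genes tested, and it exceeded every other WT library by at least 1.5 times for 7 of the 10, where 5.85% of all genes did. WT replicate 3 was the lowest WT library for all 10 genes. In MGL KO, replicate 3 was the highest library for 8 of the 10. Without WT replicate 1, all 10 means were still lower in MGL KO, 4 of the 10 had an unadjusted p under 0.05 (Mrc1, C1qa, C1qb and Folr2), where 6.69% of all genes had one in either direction, and 0 were called. With both WT replicate 1 and MGL KO replicate 4 left out, a setting chosen after the data were seen, all 10 means were lower in MGL KO, 2 of the 10 had an unadjusted p under 0.05 and the median log2 fold change was -0.43. Group medians, which 1 library moves less, gave a ratio of MGL KO to WT from 0.382 for Folr2 to 0.938 for Lyve1.

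**Figure D3:**
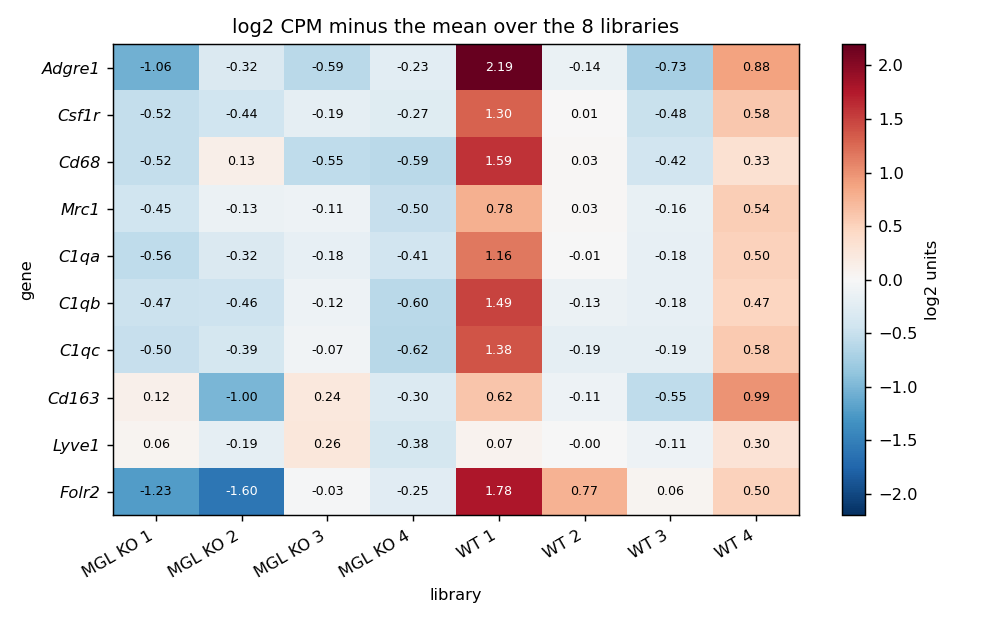
Heat map of the 10 macrophage genes (rows) over the 8 libraries (columns), each cell the log2 CPM minus the mean of that gene over the 8 libraries, printed and coloured from blue (low) to red (high). The column of WT replicate 1 is highest for Adgre1 at 2.19 and near 0 for Lyve1 at 0.07.

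The members were alike over the libraries to different degrees. Their likeness was measured as the root mean square difference of centred log2 CPM over the 8 libraries, which share depth and composition among all genes, and is given as a description. C1qb and C1qc were closest, at 0.07, followed by C1qa with C1qc and with Csf1r, at 0.14 each. Lyve1 was farthest from Folr2, at 0.96, and from Adgre1, at 0.95. C1qa lay 0.08, Csf1r 0.09, C1qb and C1qc 0.13 each and Mrc1 0.21 from the mean profile of the 10. Cd68 lay 0.31, Cd163 0.43, Adgre1 0.47, Lyve1 0.50 and Folr2 0.59 from it, and the SD of that profile was 0.61. Among 2423 other genes that varied at least as much as the mean profile, the 5 most like it were Itgam (0.09), Fcgr2b (0.10), Fcgr3 (0.12), Nfam1 (0.19) and Cd48 (0.20). Itgam encodes CD11b, an integrin chain of myeloid cells, and Fcgr2b and Fcgr3 encode receptors for IgG. Itgam was at 6.43 to 9.25 CPM in MGL KO and at 22.8, 10.6, 8.09 and 15.5 CPM in WT, and its log2 fold change was -0.88 (adjusted p = 0.523, and -0.55 without WT replicate 1). The other 4 had log2 fold changes from -1.19 to -0.72 and adjusted p from 0.522 to 0.631, so none of the 5 was called. Those 4 log2 fold changes ran from -0.64 for Cd48 to -0.20 for Nfam1 without WT replicate 1.

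Set against Lyve1 within each library, the other members were compared without any scaling between libraries. Lyve1 was the member with the smallest difference, so these ratios are a description and not a further test. The ratio of C1qb to Lyve1 was 0.446 to 0.558 in MGL KO and 0.595 to 1.73 in WT, and that of C1qc was 0.465 to 0.601 and 0.606 to 1.72. For these 2 genes and for Folr2, 3 of the 9, every MGL KO library was below every WT library, as for 0.915% of all genes tested. On the CPM scale C1qb and C1qc overlapped through MGL KO replicate 3, the MGL KO library with the most Lyve1. The distance was narrow for C1qc, where MGL KO replicate 2 stood at 0.601 and WT replicate 2 at 0.606. For C1qa the ratio was 0.615 to 0.925 in MGL KO and 0.901 to 2.02 in WT, and for Csf1r 0.491 to 0.798 and 0.570 to 1.74, so these overlapped. For Mrc1 it was 0.350 to 0.522 against 0.483 to 0.819, and for Cd163 0.320 to 0.594 against 0.413 to 0.909, again with overlap. The plot of these ratios shows that WT replicates 2 and 3 lay close to the MGL KO libraries for each of these genes.

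**Figure D4:**
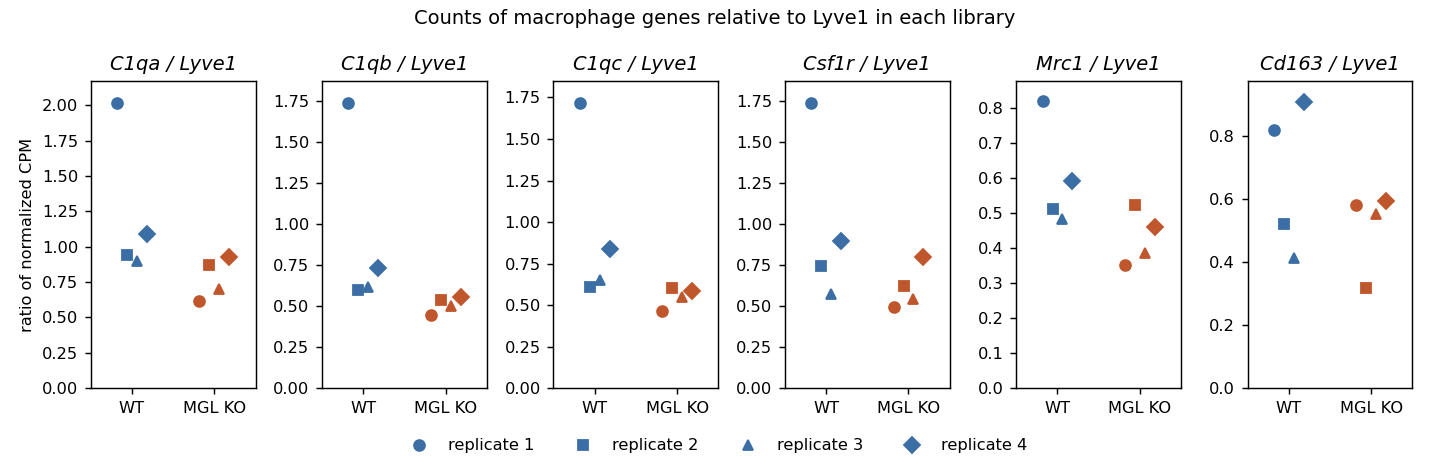
Ratio of the normalized CPM of 6 macrophage genes to that of Lyve1 (vertical axes from 0) in the 4 WT (blue) and 4 MGL KO (orange) libraries, with 1 symbol per replicate number. WT replicate 1 reaches 2.02 for C1qa, and the groups are apart for C1qb and C1qc and overlap for the other 4.

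Levels were compared between genes per length, as CPM per kb of the canonical transcript in GENCODE M39. In WT, C1qa was the most abundant at 71.8 ± 32.0 CPM per kb (SD, n = 4), followed by C1qc at 32.6 ± 18.2 and C1qb at 22.9 ± 13.8. Lyve1 came next at 15.2 ± 1.88, then Cd68 at 14.9 ± 10.1, Csf1r at 10.4 ± 5.61 and Cd163 at 9.75 ± 4.51. Mrc1 at 6.92 ± 2.08, Adgre1 at 6.23 ± 5.69 and Folr2 at 1.69 ± 0.973 closed the order. The ranges of neighbours in this order overlapped throughout, WT replicate 1 included. Within each library, of both groups, the C1q chains kept their order. C1qa made up 53.5% to 61.3% of their sum per kb, C1qc 22.8% to 26.7% and C1qb 15.9% to 19.7%. In MGL KO the order was C1qa (40.5 ± 4.39 CPM per kb), C1qc (17.1 ± 2.92), Lyve1 (14.0 ± 2.71), C1qb (11.6 ± 1.73), Cd68 (7.71 ± 2.05), Cd163 (6.78 ± 2.32), Csf1r (5.72 ± 0.598), Mrc1 (4.45 ± 0.632), Adgre1 (2.19 ± 0.526) and Folr2 (0.535 ± 0.289). There C1qa stood above C1qc without overlap, and so did Csf1r above Mrc1, Mrc1 above Adgre1 and Adgre1 above Folr2, while the other neighbours overlapped. Lyve1 and C1qb thus held opposite places in the 2 groups, within their spread. So did Csf1r and Cd163, but without WT replicate 1 the WT mean of Cd163 per kb was above that of Csf1r, as in MGL KO.

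The wider macrophage program was followed by 6 further lists, 100 genes of which 93 were tested. Of these, 74 (79.6%) had a lower mean in MGL KO and 24 an unadjusted p under 0.05, all 24 with the lower mean in MGL KO, beside 47.0% and 4.29% of all genes. None was called by the quasi-likelihood test, and the median log2 fold change was -0.48. Every MGL KO library was below every WT library for 4 of the 93, a share near the 3.30% of all genes tested. Without WT replicate 1, 60 of the 93 had a lower mean in MGL KO, where 45.2% of all genes did, 9 had an unadjusted p under 0.05 in either direction, where 6.69% of all genes did, and the median was -0.20. The lists thus stood nearer to all genes without that library, as the 10 members did.

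**Figure D5:**
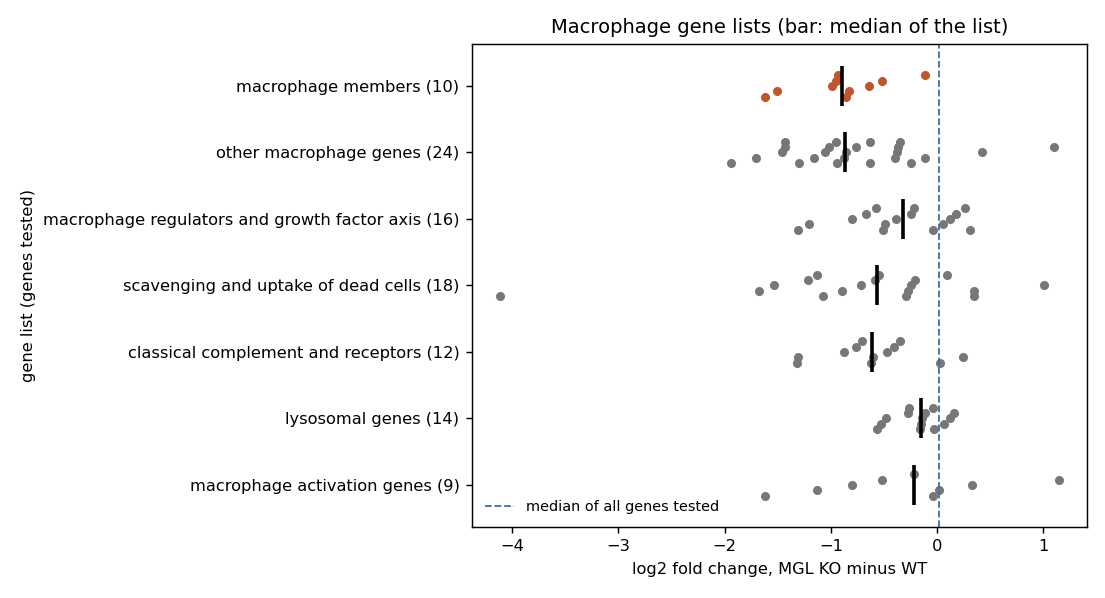
Log2 fold change of MGL KO against WT (horizontal axis) of each gene tested in the 10 macrophage members (orange) and in 6 further macrophage lists (grey), with a black bar at each list's median and a dashed line at 0.02, the median of all genes tested. The medians run from -0.89 for the members to -0.15 for the lysosomal genes, and the point farthest left is Marco at -4.11.

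Among 24 other macrophage genes, which include surface receptors and enzymes of these cells, 22 had a lower mean in MGL KO, with a median log2 fold change of -0.87 (-0.27 without WT replicate 1). Lilrb4a, an inhibitory receptor of myeloid cells, was the gene of this list with groups apart, at 2.06 ± 0.711 CPM in MGL KO and 5.71 ± 2.54 in WT (SD, n = 4). Its log2 fold change was -1.46 (SE 0.38, adjusted p = 0.433), and DESeq2 alone called it, with an adjusted p of 0.0385. The 2 genes with a higher mean in MGL KO, named after their values were seen, were Lyz2, the lysozyme of myeloid cells and airway glands, and Cbr2, an enzyme that airway cells also make. MGL KO replicate 4 held 1398 CPM of Lyz2 and 1325 CPM of Cbr2. The other MGL KO libraries held at most 194.8 and 131.2 CPM, and the WT means were 357.9 ± 259.9 and 188.5 ± 24.0 CPM. The log2 fold change was 0.42 for Lyz2 and 1.10 for Cbr2 with all libraries, and it turned to -1.05 and -0.94 without MGL KO replicate 4, which was also the library with the airway genes.

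Of 16 tested regulators and growth factor genes, 11 had a lower mean in MGL KO, and the median log2 fold change was -0.32 (-0.14 without WT replicate 1). Tyrobp, which encodes the adaptor DAP12 that carries the signal of several myeloid receptors, had its groups apart, at 4.43 ± 1.10 and 10.3 ± 7.20 CPM (log2 fold change -1.21, adjusted p = 0.523, and -0.59 without WT replicate 1). A pair of transcription factors was picked for their role, with values in view, and neither was called. Spi1, which encodes PU.1, was at 7.05 ± 1.52 and 11.2 ± 6.20 CPM (log2 fold change -0.67, adjusted p = 0.640, and -0.22 without WT replicate 1), and Maf at 43.4 ± 5.80 and 56.8 ± 8.52 CPM (-0.39, adjusted p = 0.523).

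Of 18 tested genes of scavenging and the uptake of dead cells, 14 had a lower mean in MGL KO, with a median of -0.57 (-0.36 without WT replicate 1). Gas6, the bridge between dying cells and the receptors MERTK and AXL, had its groups apart with a small difference, at 208.3 ± 15.9 and 247.4 ± 7.14 CPM (log2 fold change -0.25, adjusted p = 0.550). Marco, a scavenger receptor named here after its value was seen, was at 29.0 CPM in WT replicate 1, at 3.42 and 2.93 CPM in WT replicates 2 and 4, at 0 counts in WT replicate 3 and at 0.393 to 0.740 CPM in MGL KO. Its log2 fold change was -4.11 (adjusted p = 0.503, and -2.06 without WT replicate 1), and its highest library was also the one with the B and plasma cell genes.

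Of 12 genes of the classical complement pathway and its receptors, 10 had a lower mean in MGL KO, with a median of -0.61 (-0.28 without WT replicate 1). C3ar1, the receptor for the C3a fragment, had its groups apart, at 5.49 ± 0.694 and 13.7 ± 9.47 CPM (log2 fold change -1.32, adjusted p = 0.503, and -0.74 without WT replicate 1). Lysosomal genes, which nearly all cells use, showed least: 11 of 14 had a lower mean, none had an unadjusted p under 0.05, and the median was -0.15. Without WT replicate 1, 5 of the 14 had a lower mean and the median was 0.03. The lowest p in that list were those of the protease gene Ctsb (log2 fold change -0.53, adjusted p = 0.615, and -0.21 without WT replicate 1) and of Lipa, the acid lipase (-0.57, adjusted p = 0.638, and -0.17 without WT replicate 1). Of 14 activation genes only 9 had enough counts to be tested, 6 of them with a lower mean, and the median was -0.22 (4 of the 9 and 0.08 without WT replicate 1). Chil3, Il10, Tnf, Il6 and Cxcl9 were left out by the filter. Clec10a, one of the galactose-type lectins, was at 5.27 ± 1.46 and 11.6 ± 5.14 CPM (log2 fold change -1.13, adjusted p = 0.494).

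Summed markers of the other immune cells nearest to macrophages in kind overlapped between the groups. The summed level of 7 dendritic and Langerhans cell genes was 12.4 to 19.0 CPM in MGL KO and 11.4 to 21.6 CPM in WT. The 5 neutrophil genes summed to 3.97 to 19.95 and to 5.13 to 22.6 CPM, highest in WT replicate 1 and, among MGL KO, in replicate 4. The 5 genes of the alveolar macrophage list, which holds Marco, summed to 30.6 CPM in WT replicate 1 and to at most 4.39 CPM in any other library, and 29.0 of the 30.6 CPM were Marco. The 4 monocyte genes summed to 113.5 to 159.8 CPM in MGL KO and to 93.8 to 115.4 CPM in WT. Most of that sum was Nr4a1, which is also an immediate early gene of many cells, at 104.5 ± 25.4 CPM in MGL KO and 72.4 ± 11.3 in WT (log2 fold change 0.53, adjusted p = 0.512). The other 3 had lower means in MGL KO. Of these, the log2 fold change of Plac8 turned to 0.27 without WT replicate 1 and that of Vcan to 0.15 without WT replicate 4. The 5 blood endothelium genes all had a lower mean in MGL KO, with a median log2 fold change of -0.18, and none was called. With MGL KO replicate 2 left out, Pecam1 was at 0.02 and Cdh5 at 0.01, and the others ran from -0.23 for Tek to -0.09 for Kdr. The 5 fibroblast genes all had a lower mean in MGL KO too, but Col3a1 turned to 0.02 without MGL KO replicate 2. Among them Dcn, a matrix proteoglycan, had its groups apart at 450.7 ± 70.4 and 577.5 ± 51.7 CPM (log2 fold change -0.36, adjusted p = 0.550). The part of these cells in the levels of the 10 macrophage genes was not tested.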

How the data were processed

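Poly(A)-selected RNA of frozen esophagi (4 MGL KO, 4 WT) had been sequenced on Illumina NovaSeq instruments. The submitters' processing notes name FastQC 0.11.9, Cutadapt, STAR 2.7.10b and GRCm39. The counting tool, the annotation and the use of strand are not given in the sources used here. The authors deposited whole-number counts per gene symbol and library, without normalization. All value columns were used.

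Of 32849 symbols, 22721 had a count and 14864 were kept by filterByExpr at a minimum count of 10. CPM used kept library sizes and TMM factors (0.823 to 1.11). MGL KO was compared with WT by the quasi-likelihood test of edgeR 4.0.16 (R 4.3.3), adjusted by the Benjamini-Hochberg method over all genes tested at 0.05. Standard errors are the log2 fold change divided by the root of F. Log2 CPM of profiles used a prior count of 1. Alternatives were DESeq2 1.42.0, limma-voom (limma 3.58.1), edgeR's exact test, which the study's methods name, other filters and scalings, a replicate block and leaving out libraries. The depth was 13479069 to 17090152 counts. Within a group, all pairs of libraries differed beyond sampling noise (chi-square per degree of freedom at least 13.6). On simulated counts of 14864 genes with 200 changed, the test recovered 82% of those changed by a log2 fold of 2 and 45% of those changed by 1, and 4.51% of its calls were false.

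The members and lists were chosen with earlier results of these data known, and the B and plasma cell, T and NK cell and adipocyte lists were added after values were seen. Besides the members and Mgll, genes were named where their groups did not overlap (up to 4 a list), for macrophage lists without one the 2 lowest p, and the 5 profiles most like the members. Others are named as picked for their role, and some genes are not reported here. Gene positions, overlaps and transcript lengths came from GENCODE M39 (GRCm39), promoters from RefSeq (GRCm38.p6).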

Additional observations from a re-analysis of the deposited data

Results flagged for a closer look

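In groups of 4 libraries, 12 of 90 sets of values had a library far from the other 3, where chance gives about 1 in 20, or 4.5. The sets were not independent, and some were picked with values seen, so the 12 cannot be weighed against that rate. Of the 12, 5 were WT replicate 1 and 5 MGL KO replicate 4, each on the high side. Among the members only Cd68 was concerned: MGL KO replicate 2 was at 12.9 CPM and the other MGL KO libraries at 8.21 or less. In WT replicate 1, Tyrobp was at 21.0 CPM with the other WT libraries at 7.50 or less. Summed marker levels in the same library were 5614 CPM for B and plasma cells (others at most 59.3), 30.6 for the alveolar macrophage list (at most 4.39), of which 29.0 were Marco, 12.8 for T and NK cells (at most 1.54) and 2.06 for eosinophils (at most 0.329). In MGL KO replicate 4 the sums were 5145 CPM for airway epithelium (others at most 41.9), 3129 for other macrophage genes (at most 670.5), 455.6 for B and plasma cells (at most 75.2), 19.95 for neutrophils (at most 6.31) and 4.72 for T and NK cells (at most 0.857). Cd48 was low in MGL KO replicate 2, at 2.08 CPM with the other MGL KO libraries at 2.57 or more.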

How the results depend on the processing

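Each of the 10 macrophage genes kept a lower mean in MGL KO and an adjusted p above 0.05 in all 20 alternatives in which it was tested, 199 of 199 values, with 0 reversed. Folr2 could not be tested with at least 10 counts required in every library. The lowest adjusted p of a member was 0.178, for C1qa by DESeq2. The number of members with an unadjusted p under 0.05 fell from 8 to 4 without WT replicate 1 and to 4 without MGL KO replicate 1, and was 5 with limma-voom quality weights.

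The number of all genes called, 7, was 64 with edgeR's exact test on the same genes, 42 with it on all genes with a count, 138 with DESeq2, 25 with limma-voom quality weights, 2 with the robust fit, 2 with no filter, 2 with both WT replicate 1 and MGL KO replicate 4 left out, and 2 to 5 when 1 library was left out. Higher in MGL KO were 3 of the 7, 42 of the 64, 30 of the 42, 79 of the 138, 20 of the 25, 5 of the 6 with library size alone and 4 of the 7 with at least 10 counts in every library. In the 6 further lists DESeq2 called 1 gene, Lilrb4a. The causes were not tested.

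Libraries with the same number did not deviate together (correlations -0.14, -0.28, -0.14 and 0.08 over 14864 genes). These correlations cannot show whether such libraries shared a litter or a day, and the labels do not say. With a replicate block, 2 genes and 0 members were called, 3 members had an unadjusted p under 0.05 and the members' median log2 fold change was -0.75.

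Depth limits Folr2 most, with 3 to 61 counts a library.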

Other observations

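Adipocytes, a list added after values were seen, varied between libraries without setting the groups apart: 5 of their genes summed to 26.7 to 236.1 CPM in MGL KO and to 25.0 to 195.6 CPM in WT. Mgl2, a galactose-type lectin gene named for its symbol and with values in view, was at 11.6 ± 2.71 CPM in MGL KO and 9.25 ± 1.12 in WT (SD, n = 4), a log2 fold change of 0.32 (adjusted p = 0.665, edgeR's quasi-likelihood test, and 0.18 without MGL KO replicate 3).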
